A study of Mus musculus with 4 samples.

Results

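The genes described here encode the machinery of oxidative phosphorylation, in the nucleus and in mitochondrial DNA. They were taken from the RNA table by symbol: genes starting with Nduf, Sdha to Sdhd, Uqcr, Cox4 to Cox8 or Atp5, and the mitochondrially encoded mt-Nd, mt-Co, mt-Cytb and mt-Atp genes, with at least 20 unique molecules (UMIs) over both libraries. Of 32285 genes, 107 had such a symbol and 98 reached 20 UMIs. They comprise 78 nuclear subunits, 7 nuclear assembly factors of complex I and 13 mitochondrially encoded subunits. The 9 symbols below 20 UMIs were Ndufaf1 with 18, Cox6b2 with 8, Cox7a1 with 4, Cox4i2 with 1, and Cox6a2, Cox7b2, Cox8b, Cox8c and Ndufa4l2 with 0.

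The cells were T cells sorted from mouse bone marrow on day 14 after allogeneic bone marrow transplantation, in which C57Bl/6 recipients were given 5000000 marrow cells together with 500000 CD4 and 500000 CD8 T cells of C3H.SW donors. One group had the transplant alone (alloBMT), and the other also had cyclophosphamide at 50 mg/kg on days 3 and 4 (PT-Cy, post-transplant cyclophosphamide, a drug that kills dividing cells). Each group was a pool of 4 mice read as 1 multiome library, which gives RNA and open chromatin (ATAC) of the same nuclei, so there is no replicate and no test. The age of the mice is not given in the labels. The RNA table covers the CD4 set, with 926 cells and 3027967 UMIs in alloBMT and 284 cells and 1264107 UMIs in PT-Cy, while the ATAC table and the mitochondrial percent per cell also cover the CD8 set. Intervals are at the 95% level and cover counting error only. A difference between the pools of mice cannot be told apart from an effect of the drug.

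The respiratory chain passes electrons from NADH (complex I) and succinate (complex II) through complex III to oxygen at complex IV, and pumps protons across the inner mitochondrial membrane. Complex V, the ATP synthase, lets the protons back to make ATP. All but complex II mix subunits from nuclear genes, made in the cytosol and imported, with subunits that mitochondria make from their own DNA, which is transcribed as long precursor RNAs covering many genes and then cut apart. T cells that become activated and divide draw on this machinery together with glycolysis. Multiome libraries start from isolated nuclei, so mitochondrial RNA in them is what stays attached to or travels with the nuclei.

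The promoters printed here show motif letters that were searched in all nuclear members, at genes with high and low RNA ratios. Cox6a1, Ndufs5 and Uqcr11 had ratios among the highest in PT-Cy, and Uqcrh had one of the lowest. Bases are those before the annotated gene start, read 5′ to 3′ on the gene's strand, from RefSeq on GRCm38.p6. Capitals mark matches, on either strand, to GCGC, any 2 bases and GCGC (NRF1, a factor of respiratory genes), CCGGAAG (GABPA and other ETS factors) or CCAAT.
Cox6a1, chr5:115348959-115349208, minus strand: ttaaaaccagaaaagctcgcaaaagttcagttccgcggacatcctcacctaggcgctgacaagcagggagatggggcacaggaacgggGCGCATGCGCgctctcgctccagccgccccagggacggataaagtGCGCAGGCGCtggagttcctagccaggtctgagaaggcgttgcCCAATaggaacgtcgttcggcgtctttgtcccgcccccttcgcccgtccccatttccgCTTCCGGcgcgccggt
Ndufs5, chr4:123718187-123718336, minus strand: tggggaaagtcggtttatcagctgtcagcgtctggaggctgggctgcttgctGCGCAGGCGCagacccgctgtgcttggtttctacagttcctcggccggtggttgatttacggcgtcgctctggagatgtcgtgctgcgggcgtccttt
Uqcr11, chr10:80406822-80406971, minus strand: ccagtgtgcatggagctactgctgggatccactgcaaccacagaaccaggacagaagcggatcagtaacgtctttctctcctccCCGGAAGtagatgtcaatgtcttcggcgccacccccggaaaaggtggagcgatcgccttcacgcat
Uqcrh, chr4:116075071-116075220, minus strand: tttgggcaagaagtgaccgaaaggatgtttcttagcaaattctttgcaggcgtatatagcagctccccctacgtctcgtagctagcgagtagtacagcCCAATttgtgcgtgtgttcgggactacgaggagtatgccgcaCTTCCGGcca

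Of the 85 nuclear members, 72 had a promoter window in the RefSeq table (250 bases before to 50 after the start). The NRF1 letters were found in 21 of the 72 windows (29.2%), against 9.61% of 17491 protein-coding genes. The GABPA letters were found in 18 of the 72 (against 12.9% of all genes), and those of YY1 (AAGATGGC), a factor bound at many housekeeping promoters, in 11 (15.3%, against 3.57%). CCAAT was about as frequent in members as in all genes (41.7% against 42.3%), and TATAAA was less frequent (8.33% against 14.8%). All 72 windows of members overlapped a deposited ATAC peak, against 66.7% of the 17491 genes. Motif shares among genes with such a peak were not computed. The Cox6a1 window held 2 NRF1 matches, an ETS match and CCAAT, and the Uqcrh window held an ETS match and CCAAT. The RNA ratio of PT-Cy to alloBMT had a median of 0.36 (log2) in the 20 tested members with the NRF1 letters and 0.22 in the 60 others, including those with no window. For GABPA these medians were 0.21 in 16 members and 0.28 in 64. The NRF1 letters were not limited to members with high ratios. They were also found before the start of Atp5g2 (-0.12) and Atp5h (-0.030). Ndufc2, with the highest ratio (1.23), had CCAAT but no NRF1 letters before its start. A match is only a match of letters, and binding was not measured.

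The sort and the libraries bear on every result below. Cd4 was at 649 UMIs per 1000000 UMIs (CPM) in alloBMT and 407 in PT-Cy, and all 11 T cell markers were detected in both. Those markers summed to 8222 and 6683 CPM (-0.30, -0.33 to -0.26), and 8 of the 11 had an interval below 0, against 18.5% of all genes with at least 100 UMIs. The 6 CD8 T and NK cell markers summed to 277 and 240 CPM (-0.21, -0.40 to -0.015). Of these, Cd8a had 0 UMIs. Cd8b1 was at 100 and 131 CPM (0.39, 0.11 to 0.67), with no UMI in 731 of 926 and 193 of 284 cells. Eomes was at 162 and 67.2 CPM (-1.27, -1.62 to -0.94). Klre1 had 44 and 15 UMIs, Klrb1c 1 and 32, and Ncr1 1 and 6. RNA of other blood cells was higher in PT-Cy: the 8 measured red cell genes summed to 213 and 876 CPM (6 and 8 of 8 detected; 155 to 229 CPM over the alloBMT clusters and 411 to 952 over those of PT-Cy), the 11 neutrophil and monocyte genes to 42.6 and 309 CPM (all 11 detected in both), and the 9 B cell genes to 23.4 and 83.1 CPM, with Jchain at 0. The median cell had 2750 UMIs in alloBMT and 3889 in PT-Cy. At least 1 red cell UMI was found in 48.2% of alloBMT and 87.7% of PT-Cy cells. Genes of dividing cells summed to 1312 and 3875 CPM. The exonic share of exonic and intronic UMIs was 54.9% and 57.3%, and 53.0% and 55.0% without mitochondrially encoded UMIs. RNAs retained in the nucleus, 5 genes, summed to 18323 and 15347 CPM (-0.26, -0.28 to -0.23), but went in both directions. Malat1 had a log2 ratio of -0.35 (-0.38 to -0.33), Xist one of 0.76 (0.68 to 0.83) and Kcnq1ot1 one of 0.071 (-0.13 to 0.27). The part of these differences in the ratios below was not tested, except where a value without the cells in question is given. Among cells of a library, the share of nuclear subunit UMIs rose with the exonic share (correlation rho 0.54 in alloBMT and 0.70 in PT-Cy). For the mitochondrial share rho was 0.10 and 0.37.

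Both the nuclear and the mitochondrial part of the machinery were at a higher level in PT-Cy CD4 cells, by nearly the same factor. The 78 nuclear subunits summed to 7145 CPM in alloBMT and 8790 CPM in PT-Cy, a log2 ratio of 0.30 (0.27 to 0.33), or 1.23-fold. The 13 mitochondrially encoded subunits summed to 40964 and 50632 CPM, a log2 ratio of 0.31 (0.29 to 0.32), or 1.24-fold. There were 5.73 mitochondrially encoded UMIs for each nuclear subunit UMI in alloBMT and 5.76 in PT-Cy. The nuclear to mitochondrial ratio therefore differed between the libraries by -0.0069 on the log2 scale (-0.043 to 0.029), a value that does not depend on the library totals. In contrast, the 7 assembly factors of complex I, which build the complex but do not stay in it, summed to 159 and 164 CPM, a log2 ratio of 0.041 (-0.20 to 0.28).

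The median gene with at least 100 UMIs had a ratio of 0.025, and the sums of cytosolic ribosomal protein genes were 58935 and 58278 CPM. With edgeR's TMM scaling all ratios were lower by 0.13, and the nuclear and mitochondrial sums were then both at 0.17. In cells with no red cell UMI, 480 in alloBMT and 35 in PT-Cy, the nuclear sum was at 0.23 and the mitochondrial sum at 0.35.

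**Figure D1:**
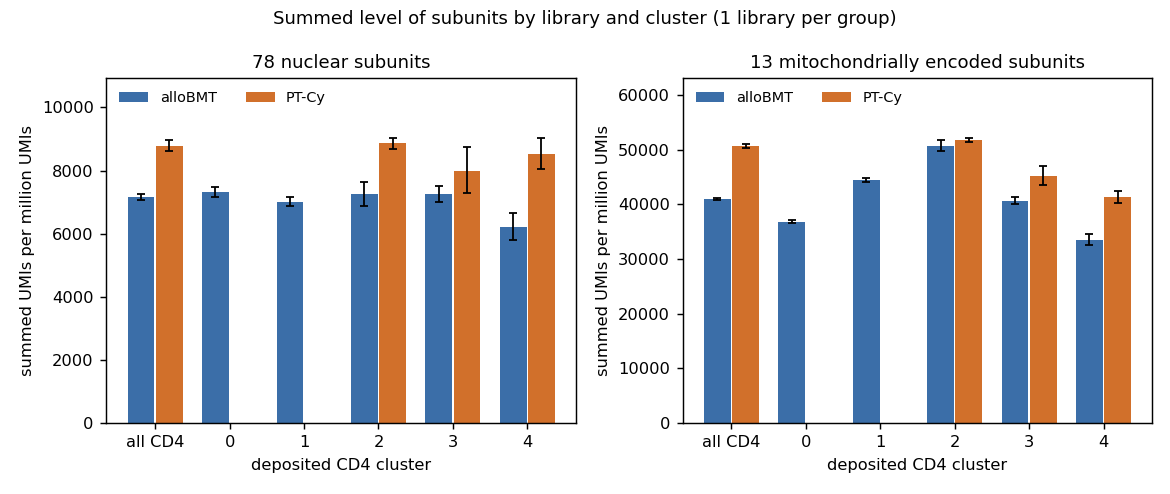
Summed CPM (bars from 0, exact Poisson 95% intervals) of the nuclear subunits, left, and the mitochondrially encoded subunits, right, in all CD4 cells and in each deposited cluster with at least 10 cells of a library. PT-Cy (orange) is above alloBMT (blue) in all CD4 cells in both panels, while in cluster 2 the mitochondrial bars stand at 50694 and 51765.

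Among single genes, 93 of the 98 had at least 100 UMIs, and 19 of these were at least 1.5-fold higher in PT-Cy and 0 at least 1.5-fold lower. Among all 6285 genes with at least 100 UMIs, 12.5% were higher and 9.50% lower by this rule. Of the 93 members, 80 had a ratio above 0 (52.5% of all genes did), and their median was 0.27 against 0.025. The interval lay above 0 for 38 members (22.4% of all genes) and below 0 for 2, Ndufs4 and Uqcrh (18.5% of all genes). TMM scaling left 8 members past 1.5-fold upwards and brought 1, Ndufaf7, past it downwards, with the interval above 0 for 34 and below 0 for 8 (also Cox7a2l, Cox8a, Atp5e, Atp5g2, Ndufaf7 and mt-Nd2) and 68 ratios above 0. Over all genes the split of 783 higher and 597 lower became 567 higher and 869 lower. The 19 comprised 17 of 76 nuclear subunits and 2 of 13 mitochondrially encoded genes, with 0 of 4 assembly factors.

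**Figure D2:**
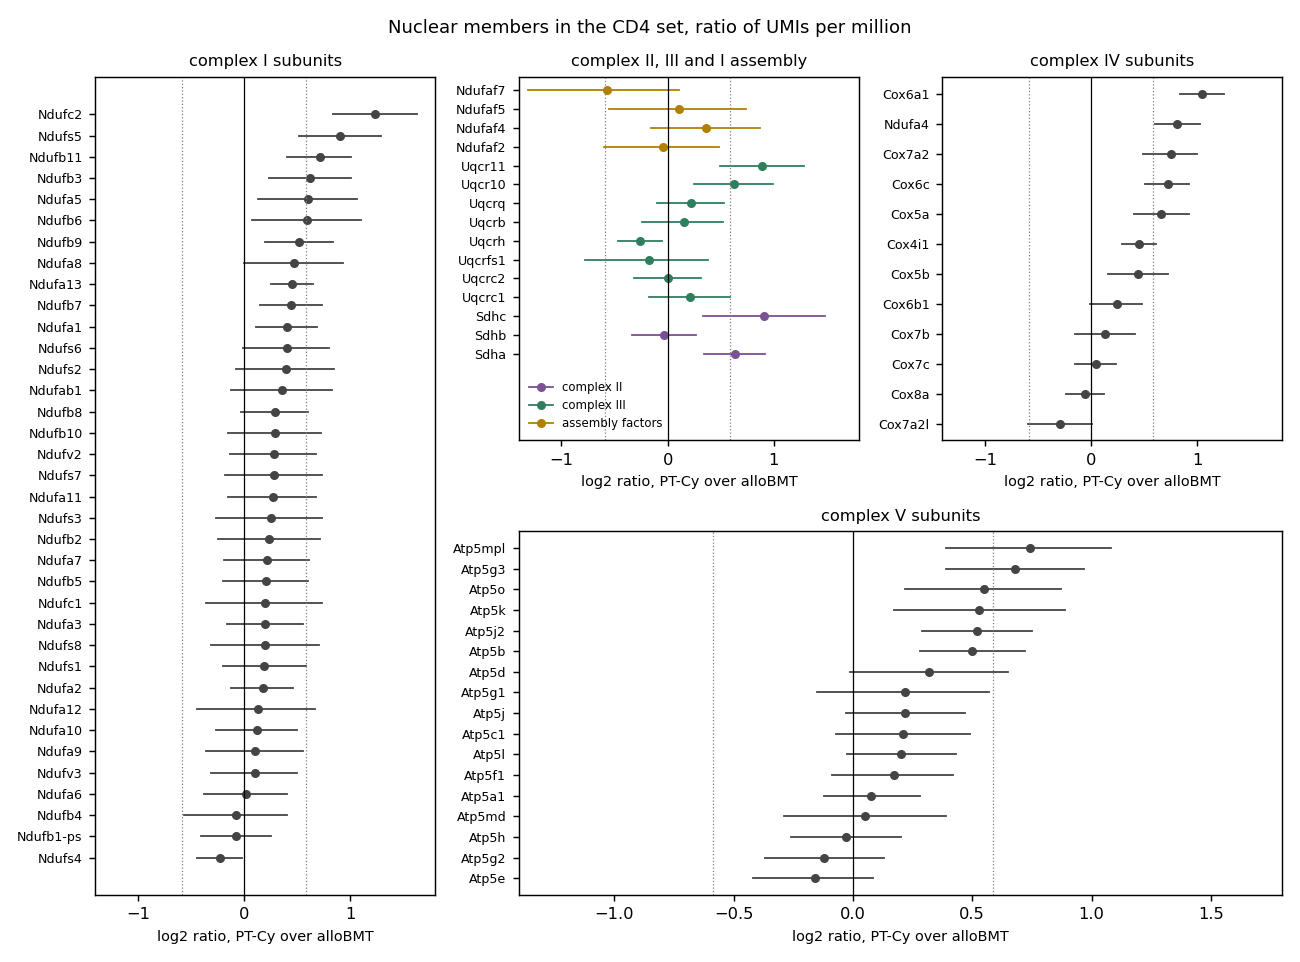
Log2 ratio of CPM, PT-Cy over alloBMT, of the 80 nuclear members with at least 100 UMIs, by complex, with exact conditional binomial 95% intervals (lines) and 1.5-fold marked by dotted lines. Most points lie to the right of 0, from Ndufc2 at 1.23 to Ndufaf7 at -0.57, and complex IV holds both Cox6a1 at 1.04 and Cox7a2l at -0.29.

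Complex I, the entry point for NADH, summed to 2261 and 2786 CPM over its 37 nuclear subunits, a log2 ratio of 0.30 (0.24 to 0.36). The 7 core subunits, most of which hold the flavin or an iron-sulfur cluster, were at 0.31 (0.13 to 0.48) and the 30 accessory subunits at 0.30 (0.24 to 0.36). At least 1.5-fold higher were 6 of 36 (12.5% of all genes) and lower 0 (9.50%). The 6 were among the 30 accessory subunits, and the core subunit gene Ndufv1, with 63 UMIs too few for this count, had a ratio of 1.03 (0.26 to 1.79). Ndufc2, in the membrane arm, had 112 UMIs in alloBMT and 110 in PT-Cy, or 37.0 and 87.0 CPM, a log2 ratio of 1.23 (0.84 to 1.63). This was the highest ratio of any member with 100 UMIs. Ndufs5, an accessory subunit on the outer side of the membrane arm, was at 43.6 and 81.5 CPM, a ratio of 0.90 (0.52 to 1.29).
Among the 4 nuclear complex I genes with the most UMIs, Ndufa13 (191 and 261 CPM), Ndufa1 (93.5 and 123 CPM) and Ndufa2 (104 and 117 CPM) had ratios of 0.45, 0.40 and 0.18. The other one, Ndufs4, whose loss in mice is a model of Leigh syndrome, was at 239 and 204 CPM, a ratio of -0.23 (-0.44 to -0.019). Ndufs4 thus went against the sum of its own complex. Ndufaf7, an assembly factor that methylates a core subunit, had the lowest ratio among members with 100 UMIs, at 27.1 and 18.2 CPM and -0.57 (-1.31 to 0.11), an interval that holds 0. Ndufs5 has a named pseudogene, and Ndufa1, Ndufa2 and Ndufa13 overlap another protein-coding gene, so their counts are less certain.

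Complex II, succinate dehydrogenase, is also an enzyme of the TCA cycle. Its 4 subunits, all nuclear, summed to 227 and 296 CPM, a log2 ratio of 0.38 (0.20 to 0.56). The flavoprotein gene Sdha was at 85.2 and 132 CPM, a ratio of 0.63 (0.34 to 0.92), and the membrane anchor gene Sdhc at 19.8 and 37.2 CPM, a ratio of 0.91 (0.33 to 1.48). The iron-sulfur subunit gene Sdhb was at 101 and 98.9 CPM (-0.031, -0.34 to 0.27). The second anchor gene, Sdhd, had 64 and 35 UMIs, with an interval from -0.25 to 1.01.

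Complex III, cytochrome bc1, had the lowest ratio of the nuclear sums, with 674 and 722 CPM over 8 genes, or 0.10 (-0.015 to 0.21). It was below 0 with TMM scaling (-0.032) and in cells with no red cell UMI (-0.18). Its members were spread: Uqcr11, a small subunit, was at 41.9 and 77.5 CPM, a ratio of 0.89 (0.49 to 1.28), while Uqcrh, the hinge protein, was at 249 and 208 CPM, a ratio of -0.26 (-0.47 to -0.055). The core protein gene Uqcrc2 was at 94.8 and 94.9 CPM, Uqcrq at 85.9 and 99.7 CPM, and Uqcrb at 60.8 and 67.2 CPM, each with an interval that holds 0. Uqcrh has 2 named pseudogenes, and Uqcrc2 and Uqcrq each overlap another protein-coding gene.

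Complex IV, cytochrome c oxidase, had the highest ratio of the nuclear sums, with 1936 and 2573 CPM over 12 genes, or 0.41 (0.35 to 0.47), within the interval of complex II. At least 1.5-fold higher were 5 of 12 and lower 0 (12.5% and 9.50% of all genes), with a median of 0.45. Cox6a1, the form of subunit 6A found outside heart and skeletal muscle, had 421 UMIs in alloBMT and 362 in PT-Cy, or 139 and 286 CPM, a ratio of 1.04 (0.84 to 1.25). Ndufa4, named for complex I but assigned to complex IV, was at 143 and 252 CPM (0.81, 0.60 to 1.02), Cox7a2 at 102 and 172 CPM (0.75), Cox6c at 162 and 266 CPM (0.72, 0.51 to 0.92), and Cox5a at 104 and 165 CPM (0.66, 0.40 to 0.92). Cox4i1, the form of subunit 4 used in most tissues, was at 284 and 389 CPM, a ratio of 0.45 (0.29 to 0.61).
Cox5b was at 97.1 and 132 CPM (0.44, 0.16 to 0.72), and Cox6b1 (0.24) and Cox7b (0.13) had intervals that hold 0. Cox8a was at 288 and 276 CPM (-0.059, -0.24 to 0.12) and Cox7c at 248 and 256 CPM (0.041, -0.15 to 0.23). Cox7a2l, a relative of Cox7a2 that joins complexes III and IV into supercomplexes, was at 121 and 98.9 CPM (-0.29, -0.59 to 0.0071). Cox5b and Cox7c each have a named pseudogene, and Cox7a2 overlaps another protein-coding gene, so their counts are less certain. There were 0.483 Cox6a1 UMIs per Cox8a UMI in alloBMT and 1.04 in PT-Cy, a change of 1.10 (0.83 to 1.37) that does not depend on the library totals. Forms known from other tissues, such as muscle, lung and testis, had few or no UMIs: Cox4i2 had 0 and 1 UMI, Cox7a1 4 and 0, Cox6b2 1 and 7, and Cox6a2, Cox8b, Cox8c and Ndufa4l2 none in either library, where 0 UMIs allow a level of up to 0.991 CPM in alloBMT and 2.37 CPM in PT-Cy (3 counts).

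Complex V, the ATP synthase, had 2048 and 2412 CPM over its 17 nuclear genes, a ratio of 0.24 (0.17 to 0.30). The 5 genes of the F1 part, which holds the catalytic sites, were at 0.18 (0.073 to 0.29). Of these, Atp5a1 was at 222 and 234 CPM (0.077, -0.12 to 0.28), Atp5b at 158 and 224 CPM (0.50, 0.28 to 0.72), and Atp5e at 161 and 144 CPM (-0.16, -0.42 to 0.086). In the peripheral stalk Atp5h was at 179 and 176 CPM, and in the membrane part Atp5l was at 166 and 191 CPM.
The membrane ring that turns as protons pass is made of 1 protein encoded by Atp5g1, Atp5g2 and Atp5g3. Atp5g3 was at 81.9 and 131 CPM, a ratio of 0.68 (0.39 to 0.97), Atp5g2 at 161 and 149 CPM (-0.12, -0.37 to 0.13), and Atp5g1 at 66.1 and 76.7 CPM (0.22, -0.15 to 0.57). The Atp5g3 to Atp5g2 ratio was 0.508 in alloBMT and 0.883 in PT-Cy, a change of 0.80 (0.42 to 1.17). Atp5g3 and Atp5mpl, at 0.74 (0.39 to 1.08), were the 2 of 17 genes of complex V past 1.5-fold, a share close to the 12.5% of all genes. Atp5l has 2 named pseudogenes, and Atp5a1 overlaps another gene.

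**Figure D3:**
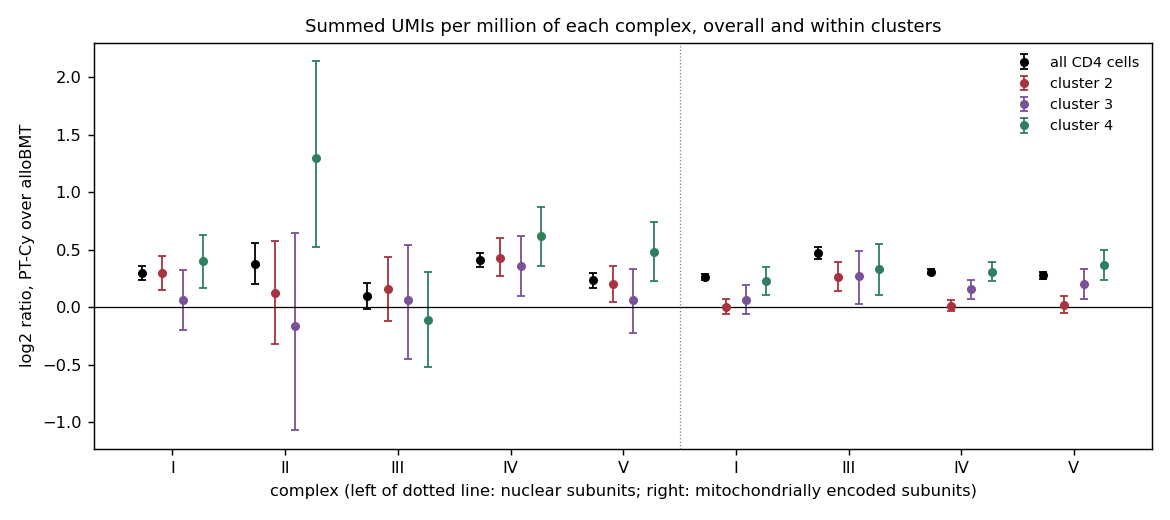
Log2 ratio of summed CPM, PT-Cy over alloBMT, of each complex in all CD4 cells and within clusters 2, 3 and 4 (points), with 95% intervals (lines). Nuclear complex IV is above 0 in each of the 4 groups of cells, and the mitochondrially encoded parts of complexes I, IV and V lie near 0 in cluster 2.

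All 13 mitochondrially encoded genes had a ratio above 0, and the interval lay above 0 for 11, the exceptions being mt-Nd2 and mt-Atp8. The size was not uniform along the genome. mt-Co1, the catalytic subunit of complex IV, had 8360 and 5286 UMIs, or 2761 and 4182 CPM, a ratio of 0.60. mt-Cytb, the heme-bearing core of complex III, was at 2618 and 3629 CPM (0.47) and mt-Nd1 at 2819 and 3762 CPM (0.42). mt-Nd2, the protein gene before mt-Co1 on the same strand, was at 2730 and 2770 CPM (0.021).
The 3 genes with the most UMIs lay between these: mt-Co3 was at 9392 and 11355 CPM (0.27), mt-Atp6 at 8271 and 10081 CPM (0.29) and mt-Co2 at 7715 and 9163 CPM (0.25). Of the other complex I genes, mt-Nd3 was at 0.27, mt-Nd4 at 0.26 and mt-Nd5 at 0.35. mt-Nd4l was at 251 and 384 CPM (0.62) and mt-Atp8 at 213 and 227 CPM (0.090). Both overlap their neighbour, mt-Nd4l by 7 and mt-Atp8 by 43 bases. mt-Nd6, which is encoded on the other strand, had 144 and 86 UMIs, a ratio of 0.52.

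The unequal ratios of mt-Co1 and mt-Nd2 were also seen within clusters. There were 1.01 mt-Co1 UMIs per mt-Nd2 UMI in alloBMT and 1.51 in PT-Cy, a change of 0.58 (0.50 to 0.65). Within cluster 2 these were 1.05 and 1.49, a change of 0.50 (0.33 to 0.67). Within clusters 3 and 4 the changes were 0.54 (0.21 to 0.86) and 0.47 (0.17 to 0.78). This pair was chosen after its values were seen. Since both genes are read from the same cells, the change does not depend on library totals or on the overall amount of mitochondrial RNA.

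**Figure D4:**
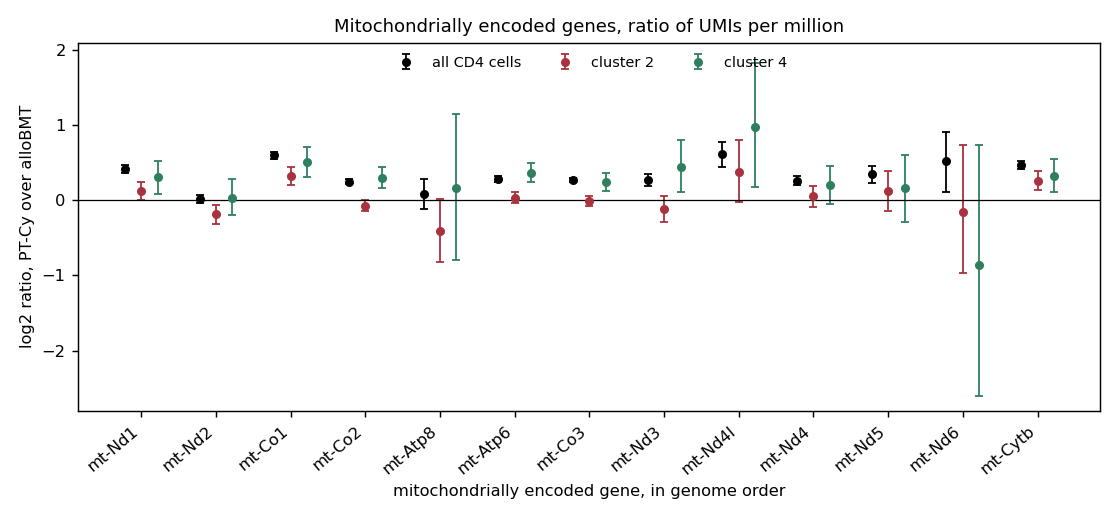
Log2 ratio of CPM, PT-Cy over alloBMT, of the 13 mitochondrially encoded genes in genome order, in all CD4 cells (black), cluster 2 (red) and cluster 4 (green), with 95% intervals. mt-Co1 and mt-Cytb lie above mt-Nd2 in each of the 3 groups of cells, and the wide intervals belong to genes with few UMIs, such as mt-Nd6.

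The libraries were made up of different clusters, and the clusters differed in mitochondrial RNA. The deposited clusters 0 to 4 held 374, 320, 42, 156 and 34 alloBMT cells, while clusters 2, 3 and 4 held 238, 11 and 31 PT-Cy cells, with 4 in cluster 0. Within alloBMT the mitochondrial sum was lowest in cluster 4 with 33510 CPM, followed by 36845 in cluster 0, 40680 in cluster 3, 44444 in cluster 1 and 50694 in cluster 2, with each step beyond counting error. The highest was 1.51-fold (1.46 to 1.57) above the lowest.
The nuclear sum varied less, from 6210 CPM in cluster 4 over 7014, 7242 and 7243 in clusters 1, 3 and 2 to 7329 in cluster 0, which was 1.18-fold (1.10 to 1.27) above cluster 4. Apart from the step above cluster 4, neighbours in this order did not differ beyond counting error. Cluster 2 had the most UMIs of dividing cell genes in alloBMT, 5190 CPM, and also held most of the PT-Cy cells, with 4128 CPM of those genes.

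Within cluster 2 the nuclear and mitochondrial parts no longer went together. The nuclear sum was 7243 CPM in alloBMT and 8862 in PT-Cy, a ratio of 0.29 (0.21 to 0.37), and the mitochondrial sum 50694 and 51765 CPM, a ratio of 0.030 (-0.0013 to 0.062). The nuclear to mitochondrial ratio differed by 0.26 (0.17 to 0.35). Of 43 nuclear subunits with at least 100 UMIs there, 10 were at least 1.5-fold higher and 0 lower (12.3% and 8.47% of 2846 genes). Cox6a1 was at 1.20 (0.60 to 1.86) and Ndufa4 at 1.07 (0.45 to 1.75), whereas Ndufc2 was at 0.35 (-0.49 to 1.32). Of the mitochondrially encoded genes, mt-Co1 (0.32) and mt-Cytb (0.26) had intervals above 0 (11.5% of genes) and mt-Nd2 (-0.18) one below (11.8%). Cells in this cluster had exonic shares of 54.7% and 57.5%, and red cell genes were at 155 and 952 CPM.

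In cluster 4 both sums were higher in PT-Cy, the nuclear one at 0.46 (0.33 to 0.59) and the mitochondrial one at 0.30 (0.25 to 0.36), and the nuclear to mitochondrial ratio differed by 0.16 (0.015 to 0.30). In cluster 3, with 11 PT-Cy cells, they were at 0.14 (-0.00080 to 0.28) and 0.15 (0.091 to 0.21), and of the 7 nuclear subunits with at least 100 UMIs there 0 were at least 1.5-fold higher and 2 lower (9.69% and 19.0% of 1073 genes). With the 3 clusters given equal weight the mitochondrial ratio was 0.15, against 0.31 over all CD4 cells. Nuclear complex IV was at 0.43 (0.27 to 0.60), 0.36 (0.10 to 0.62) and 0.62 (0.36 to 0.87) in clusters 2, 3 and 4.

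The mitochondrial share could be followed into the CD8 set from the deposited percent per cell. It was 4.10% of UMIs in alloBMT and 5.06% in PT-Cy for CD4 cells, and 5.18% and 6.37% for CD8 cells, ratios of 0.31 and 0.30 (0.29 to 0.31). In CD8 clusters 1, 2 and 5, which with cluster 6 are those with at least 10 cells of both libraries, the ratios were 0.38, 0.24 and 0.74, and in cluster 6 the share was 6.06% and 5.67%, a ratio of -0.095 (-0.12 to -0.072). The highest mitochondrial percent of any deposited cell was 10.0%. Reads of mitochondrial DNA in the ATAC libraries were not higher in PT-Cy over either set: they were 246 and 215 per 1000000 ATAC reads in the CD4 set (-0.20, -0.29 to -0.11), 343 and 215 in CD4 cluster 2 (-0.67, -0.82 to -0.52), and 228 and 222 in the CD8 set (-0.038, -0.10 to 0.025). In CD8 clusters 1 and 6 the ATAC ratio was -0.63 (-0.91 to -0.36) and -0.26 (-0.47 to -0.054). The RNA ratio was above 0 in cluster 1 and below 0 in cluster 6. CD8 clusters 2 and 5 had ATAC ratios of -0.043 (-0.15 to 0.063) and 0.10 (-0.13 to 0.33). CD4 clusters 3 and 4 had -0.27 (-0.84 to 0.25) and -0.46 (-0.81 to -0.12). At least 1 mitochondrial ATAC read was found in 45.9% and 52.1% of CD4 cells and in 51.3% and 63.1% of CD8 cells.

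Summed accessibility at the nuclear members was close in both groups. Peaks overlapping the 85 genes or within 2 kb of them summed to a CD4 ratio of -0.034 (-0.070 to 0.0025) and a CD8 ratio of -0.024 (-0.049 to 0.0016). With peaks within 10 kb these were -0.049 (-0.079 to -0.019) and -0.030 (-0.051 to -0.0092), small but with intervals below 0. Peaks overlapping a promoter window gave -0.050 (-0.095 to -0.0061) in CD4 and -0.0016 (-0.032 to 0.029) in CD8. All 72 members with a promoter window had a deposited peak there, as did 66.7% of 17491 genes. In the CD4 set 1 of the 85 was at least 1.5-fold more open and 1 less open, against 3.35% and 2.53% of 13101 loci. In the CD8 set 0 were more open and 0 less open, against 2.38% and 1.97% of 14555 loci. The members' medians were -0.020 and -0.00040, and those of all loci -0.0066 and -0.010.
The CD4 locus past 1.5-fold upwards was Ndufa1, with 17.8 counts per 1000000 counts in alloBMT and 31.8 in PT-Cy (0.84, 0.33 to 1.33), at a peak deposited as chrX:37190393-37192263. The one downwards was Ndufb3, with 40.3 and 25.3 (-0.67, -1.19 to -0.18). Neither was past 1.5-fold in the CD8 set, at -0.14 and 0.12. In RNA both genes were higher in PT-Cy, Ndufa1 at 0.40 (0.11 to 0.69) and Ndufb3 at 0.62 (0.23 to 1.01). Most accessibility intervals held 0 in the CD4 set, with 1 of the 85 above 0 and 4 below. Genes with high RNA ratios were among those that held 0. Cox6a1 was at 0.12 (-0.22 to 0.44), Ndufc2 at -0.17 (-0.79 to 0.40), Ndufa4 at 0.16 (-0.21 to 0.52) and Uqcr11 at 0.36 (-0.11 to 0.80). Counts at these loci were low in PT-Cy, from 30 at Ndufc2 to 97 at Cox6a1, so the intervals are wide.

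**Figure D5:**
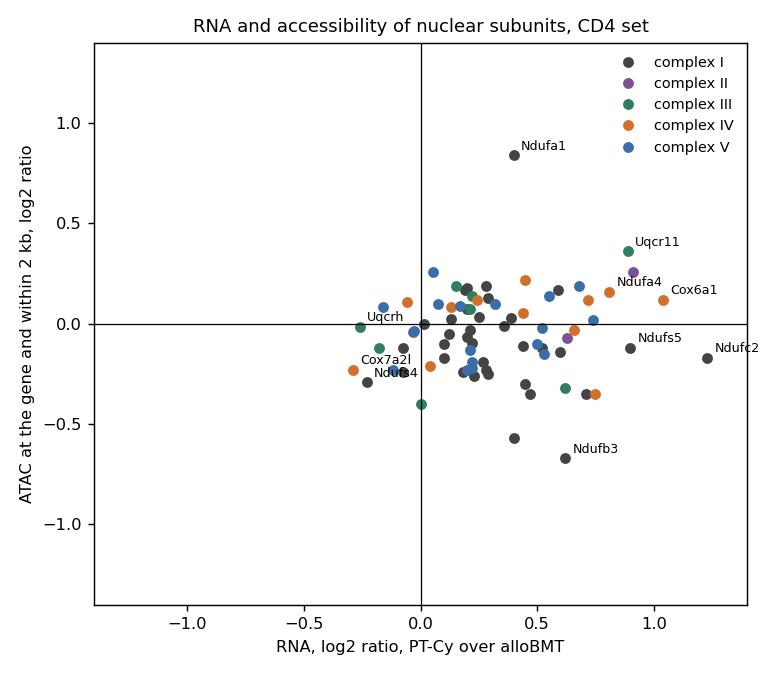
RNA ratio (x axis) against accessibility ratio at the gene and within 2 kb (y axis), both log2 of PT-Cy over alloBMT in the CD4 set, for the 76 nuclear subunits with at least 100 UMIs and 100 ATAC counts, coloured by complex. The points spread to the right of 0 in RNA and lie around 0 in accessibility, with Ndufa1 (0.84) and Ndufb3 (-0.67) at the ends.

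Other mitochondrial and metabolic genes differed from group to group, read against the 12.5% of all genes at least 1.5-fold higher and the 9.50% lower. Of TCA cycle and pyruvate entry genes 3 of 18 were higher and 0 lower, with a median of 0.33, and Ogdh, a subunit of the oxoglutarate dehydrogenase complex, was at 156 and 184 CPM (0.24, 0.0026 to 0.47). Of glycolysis genes 5 of 15 were higher and 0 lower, with a median of 0.42, and Gapdh was at 263 and 316 CPM (0.26, 0.085 to 0.44), while Pfkp, a phosphofructokinase form, was at 254 and 222 CPM (-0.20). Genes that copy, transcribe or regulate mitochondrial DNA were near the middle of all genes, with 1 of 14 higher, 0 lower and a median of -0.052. Of these Nrf1, whose letters were searched above, was at 192 and 231 CPM (0.27, 0.060 to 0.47) and Yy1 at 131 and 140 CPM (0.095, -0.17 to 0.35), while Gabpb1, a partner of GABPA, was at 89.2 and 75.2 CPM (-0.25, -0.60 to 0.096).
Mitochondrial ribosomal protein genes, which serve translation of the 13 encoded proteins, had 3 of 41 higher and 3 lower, with a median of -0.0049. Assembly factors and electron carriers outside the symbol rule had 2 of 21 higher and 2 lower, with a median of 0.025. Carriers and genes of fusion and fission had 4 of 18 higher and 0 lower, with a median of 0.021, and the phosphate carrier Slc25a3, which feeds complex V, was at 263 and 222 CPM (-0.25, -0.45 to -0.049). Cytosolic ribosomal protein genes had 4 of 81 higher and 0 lower, with a median of 0.042. Of dividing cell genes 15 of 18 were higher, with a median of 2.00, and Mki67 was at 188 and 774 CPM.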

How the data were processed

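The authors deposited RNA and ATAC tables of raw counts (genes or peaks by cells), not normalized, per the file headers and values. The per-cell table deposited by the authors gives clusters, totals and the mitochondrial percent. Of its 58 columns 48 were not used. Cell Ranger ARC 1.0.1, MACS2 and the build GRCh38, a human build although the genes are mouse, are named in the submitters' processing notes. Not given in the sources used here are cell filters, doublet treatment and the counting of intronic, overlapping or repeated reads, and no doublet caller was run. The lowest cell total was 1017 UMIs, and the libraries shared 0 barcodes.

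Counts were summed over cells, scaled to 1000000 (CPM), and set against each other as a log2 ratio (PT-Cy over alloBMT) with exact conditional binomial 95% intervals. Levels have exact Poisson intervals, and ratios of ratios a normal interval on the log scale. With 1 library per group no p-value was computed. Calls needed 1.5-fold and 100 counts. Genes were matched to RefSeq (GRCm38.p6) by symbol or synonym, 85 of 85 nuclear members. Named genes were all mitochondrially encoded members, the 4 subunits per complex with most UMIs, and the 6 highest lower and 6 lowest upper interval bounds. Tissue-restricted forms, cell type markers, up to 3 genes per other list, and those with a sequence shown were also named. Not every gene under this rule is reported here. Sdhc and Sdhd fall under this rule, whereas Ndufv1, Ndufb3, Cox5b, Cox6b1, Cox7b, Cox5a, Cox7a2, Atp5g1, Atp5g2, Atp5g3, Atp5mpl and all pairs of genes were chosen after their values were seen. Members and lists were chosen with earlier results of these data known. On simulated counts for 6278 genes of the CD4 RNA comparison, 95.6% of intervals of unchanged genes held 0. Of 196 genes with a log2 ratio of 1 in either direction, 95.9% passed 1.5-fold. These counts were drawn with counting error only, which is what the intervals assume. The simulation therefore checks the computation and cannot show how far mice, cells or libraries differ. Alternatives used edgeR 4.0.16 TMM and DESeq2 1.42.0 size factors, other count minimums and cell subsets. The software was R 4.3.3 and Python 3.11.15 with pandas 2.3.3, scipy 1.17.1, numpy 2.4.6 and matplotlib 3.10.9.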

Additional observations from a re-analysis of the deposited data

Results flagged for a closer look

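The mitochondrially encoded share of UMIs in CD8 cluster 6 went the opposite way to the other CD8 clusters with at least 10 cells of both libraries, with a log2 ratio of PT-Cy to alloBMT of -0.095 (-0.12 to -0.072; 86 alloBMT and 121 PT-Cy cells) where clusters 1, 2 and 5 were above 0. CD8 clusters with fewer cells of a library were not compared. The medians over its cells were 5.64% and 5.32%. The difference between clusters was not tested, since each group has 1 library.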

How the results depend on the processing

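Of 189 alternatives, 121 stayed within the counting interval or within 1.5 times the count, 68 moved further, and 0 changed sign where the interval had excluded 0, while some values near 0 did. The nuclear sum (0.30) was 0.17 with TMM, 0.16 with DESeq2 size factors and 0.46 in cells with no UMI of a dividing cell gene, which leaves 114 alloBMT and 3 PT-Cy cells. The mitochondrial sum (0.31) was 0.17 with TMM, 0.17 with DESeq2, 0.32 over a total without mitochondrial UMIs, 0.32 in cells with no Cd8b1 UMI, 0.44 in cells with no dividing cell UMI and 0.15 with clusters 2, 3 and 4 weighted equally, which moved the nuclear to mitochondrial ratio (-0.0069) to 0.15. Members at least 1.5-fold higher (19) were 2 at 2-fold, 8 with TMM and 8 with DESeq2, and members lower (0) were 1 with TMM and 1 with DESeq2, in both cases from a shift of all ratios by 0.13 and 0.14. The accessibility sum with TMM was -0.23 in the CD4 set, with 4 loci past 1.5-fold, and -0.11 in the CD8 set, where counting each cell once per peak gave 0.0037. Alternatives chosen after seeing the data gave, in cells with no red cell UMI, 0.23 for the nuclear sum, 0.35 for the mitochondrial sum and -0.13 for their ratio. In cluster 2 the mitochondrial sum was 0.030 and the ratio 0.26. The mitochondrial sum was 0.28 with the median gene set to 0 and 0.32 scaled to cytosolic ribosomal protein UMIs. Sums of single complexes were above 0 under 105 of 108 alternatives, the exceptions being nuclear complex III with TMM (-0.032), DESeq2 (-0.040) and no red cell UMI (-0.18). Except for the 2 scalings, the cause of these shifts was not tested. No paired analysis was possible because each group has 1 library. Depth limits the genes with few UMIs: Ndufv1, with 63, had a ratio of 1.03 and an interval from 0.26 to 1.79.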
